A study of Mus musculus with 6 samples.

Results

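Integrins and laminins, the receptors and the basement membrane proteins through which cells hold on to their surroundings, were followed in mice that carry an *Hlx* transgene, in inguinal white fat (iWAT). Members were chosen by name: each row of the deposited expression table whose symbol begins with *Itga*, *Itgb*, *Lama*, *Lamb* or *Lamc* was taken, and *Itgam*, *Itgax* and the lysosomal *Lamp* genes were left out. The rule found 41 of the 19445 gene loci. They hold 16 integrin α subunits, 9 integrin β subunits and 11 laminin chains, and 5 loci that are named after an integrin but encode no subunit.

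RNA-Seq was performed on iWAT of 3 *Hlx* transgenic (TG) and 3 littermate wild-type (WT) mice aged 12 weeks. Each mouse gave 1 library and none was treated. The comparison asks how the tissue changed in mice that carry the transgene. In the transgenic mice the *Hlx* cDNA stood under the *aP2* (*Fabp4*) promoter, and the founders came from C57BL/6 × SJL hybrid embryos and were backcrossed to C57BL/6. According to the study, the transgene was active in brown and white fat, so its effect on fat cells and that of fat cells on their neighbours cannot be told apart in whole tissue. Replicates are different mice. Values are FPKM (sequenced fragments corrected for transcript length and for the size of the library), so levels of different genes can be set side by side.

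The labels were checked before the comparison. *Hlx* had 110, 79.6 and 99.5 FPKM in TG mice, against 6.88, 7.35 and 8.14 FPKM in WT mice (log2 fold change 3.51, standard error 0.13, limma adjusted p = 0.000106). *Ucp1*, the uncoupling protein of brown fat, was likewise higher in each transgenic mouse (541 to 634 FPKM) than in each wild-type mouse (17.5 to 57.8 FPKM, log2 fold change 4.12, adjusted p = 0.00106). All 8 adipocyte markers passed the expression filter, as fat tissue should show. The labels name male mice. *Xist*, the RNA of the inactive X chromosome, nevertheless stood at 20.2 to 33.6 FPKM in all 6 libraries, and all 28 Y-linked loci of the table were at 0 in each of them, so the values go against the labelled sex in both genotypes. Transgenic replicate 2 stood apart for skeletal muscle RNA. The FPKM of a library summed to between 466059 and 542096. The absolute depth is unknown, and the relative depth, judged by the step size of the smallest FPKM values, ranged from 0.693 to 1.41 with wild-type replicate 3 set to 1, although only 12.4% to 15.2% of the low values lay on a step.

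Each laminin is a trimer of an α, a β and a γ chain. Laminins are part of the sheet that underlies epithelium and endothelium and that wraps each adipocyte, muscle fibre and Schwann cell. The α chain carries the sites that cell surface receptors bind. Integrins pair an α with a β subunit in the membrane. The pair decides the ligand: some bind laminin, some collagen, some the RGD motif of fibronectin and vitronectin, and others are found on leukocytes and bind cell surface partners. In fat, the basement membrane around adipocytes is a main part of the matrix, and integrins transmit its state to the cytoskeleton.

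Few of these loci differed between the genotypes. Of the 41, 31 exceeded a mean of 1 FPKM in either genotype and were tested among 11692 loci (limma on log2(FPKM + 1), Benjamini-Hochberg adjustment over all tested loci, a call at an adjusted p under 0.05). The row shared by *Itga1* and *Pelo* was higher in transgenic iWAT, and *Lama4*, *Itgb1bp1*, *Itga4* and *Itgbl1* were lower. These 5 calls are 16.1% of the tested members, beside 18.6% called among all tested loci. The single higher call is 3.23% of the members against 11.6% in the background, and the 4 lower calls are 12.9% against 7.03%. Of the 4 lower calls, 2 (*Itgb1bp1* and *Itgbl1*) are loci that encode no subunit. Among the 28 tested integrin subunits and laminin chains, 2 were called lower, which is close to the background share. In these 28, 21 log2 fold changes were below 0, and 6 loci separated without overlap on the lower side. The log2 fold change was below 0 in 23 of the 31 members (74.2%) and in 6029 of all tested loci (51.6%). The member count was also 23 with quantile normalization and with scaling by median ratios, 19 with sample quality weights and 20 to 23 with each mouse left out. Its median was −0.19 over the members and −0.01 over all tested loci. The 6 values separated by genotype without overlap in 10 members (32.3%), beside 42.9% of all tested loci, with 2 members higher (6.45% against 22.8%) and 8 lower (25.8% against 20.1%). An unadjusted p under 0.05 was reached by 9 members (29%), beside 36.2% of all tested loci. Counted in either direction, the shares called and separated were no larger than in the background, and the fold changes leaned to the lower side. All fold changes are those of FPKM + 1 on a log2 scale, so the change of a gene at low FPKM is understated. Since whole tissue was sequenced, fewer cells of a type and less RNA per cell cannot be told apart.

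**Figure D1:**
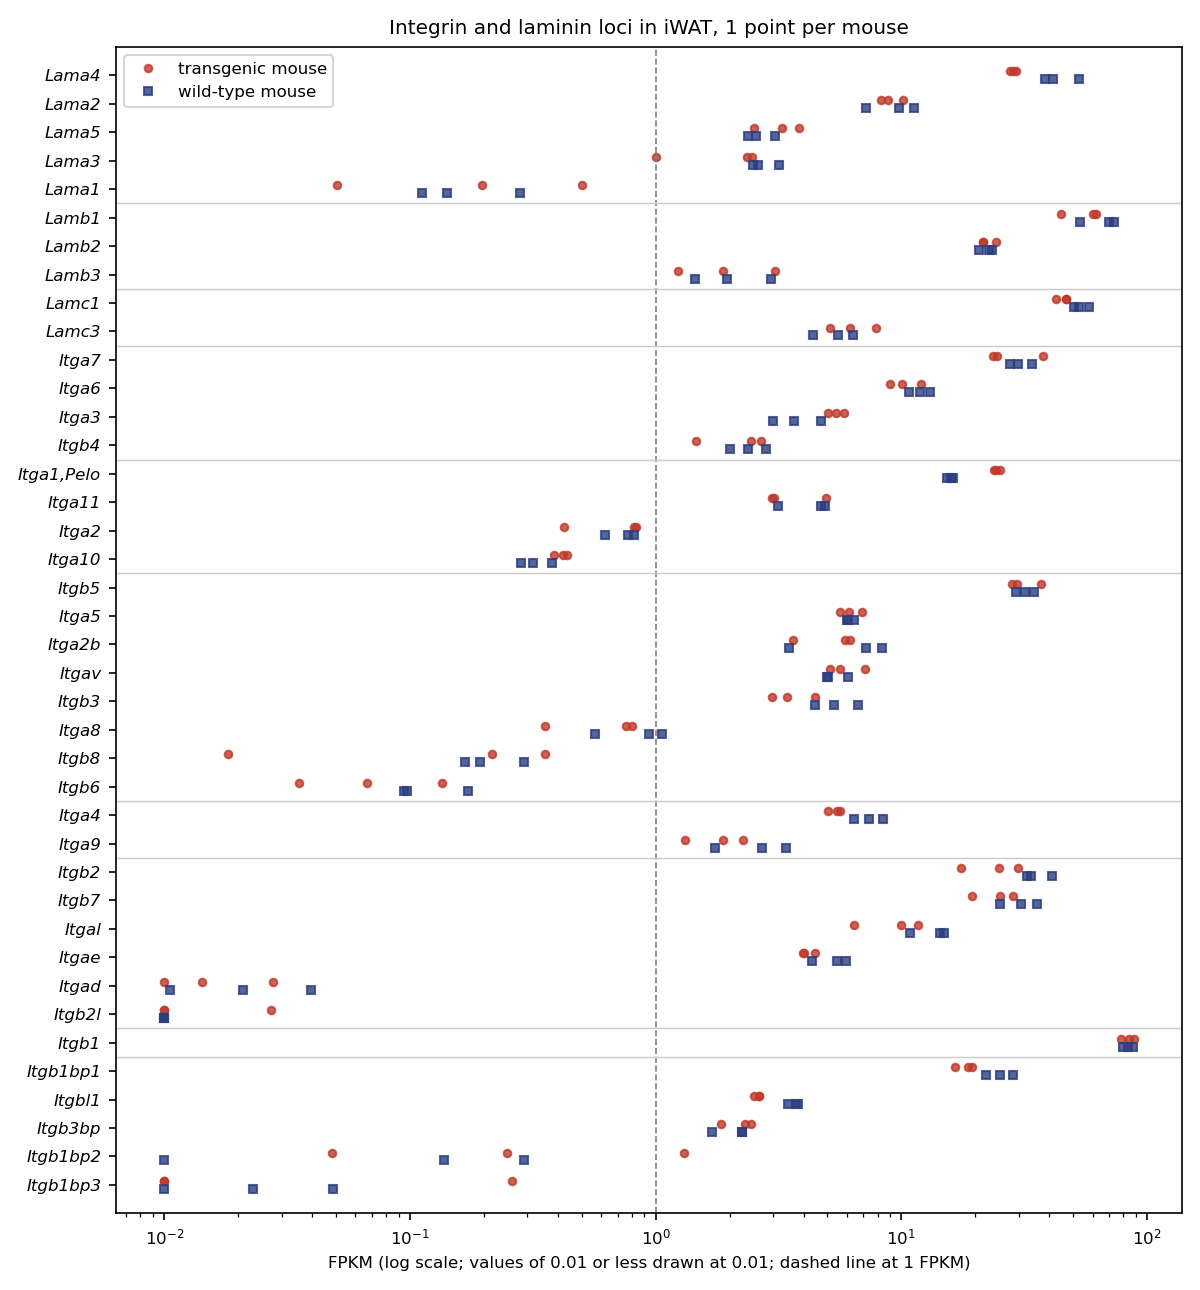
FPKM (log axis, values of 0.01 or less drawn at 0.01) of 40 loci in each of the 3 transgenic (circles) and 3 wild-type mice (squares), grouped by role with the dashed line at 1 FPKM. *Itgb1*, *Lamb1* and *Lamc1* stand highest, and the points of *Lama4*, *Itga1,Pelo* and *Itgb1bp1* separate by genotype.

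The laminin α chains came first, since the α chain sets what a laminin binds. *Lama4* encodes the α4 chain, which is found in basement membranes of endothelium, fat and muscle. Its levels were 28.4, 27.7 and 29.2 FPKM in TG iWAT, against 41.6, 38.5 and 52.7 FPKM in WT iWAT. Each transgenic mouse lay below each wild-type mouse, and the transgenic values were the closer together. The means were 28.4 ± 0.785 and 44.3 ± 7.46 FPKM (SD, n = 3 each), and the log2 fold change of −0.61 ± 0.12 (SE) was called by limma (adjusted p = 0.0162). The locus lies on chromosome 10 of mm10 from 38965178 to 39112062 and overlaps no other protein-coding gene. The call was lost without the expression filter (adjusted p = 0.0656) and without transgenic replicate 3 (adjusted p = 0.0515), while the log2 fold change stayed between −0.70 and −0.48 under all 14 other settings.

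The other α chains did not pass the test. *Lama2*, the α2 chain of muscle and nerve basement membranes, had 9.07 ± 0.992 FPKM in TG against 9.43 ± 2.1 FPKM in WT mice (log2 fold change −0.04, adjusted p = 0.892). *Lama5*, the widely expressed α5 chain, had log2 fold change 0.19 (adjusted p = 0.377). *Lama3*, the α3 chain of epithelial basement membranes, stood at 1, 2.46 and 2.36 FPKM against 3.19, 2.49 and 2.6 FPKM, and its log2 fold change was −0.39 (adjusted p = 0.244). The *Lama3* values separated narrowly by genotype, with transgenic replicate 1 far below the other 5 mice. *Lama1*, the α1 chain of early embryos, was between 0.0504 and 0.502 FPKM in all mice and was not tested.

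*Lama4* was also the main α chain transcript in all 6 mice. The summed FPKM of the 5 α chains was 41, 41.6 and 46.1 in the transgenic and 57.5, 50.7 and 69.8 in the wild-type mice. *Lama4* made up 69.4%, 66.4% and 63.4% of that sum in TG mice, against 72.4%, 75.9% and 75.5% in WT mice. The share of *Lama4* was therefore lower in every transgenic mouse, and the means of 66.4 ± 2.99% and 74.6 ± 1.91% differed by −8.22 percentage points (TG minus WT). *Lama2* took 21.1 ± 0.979% in transgenic and 15.8 ± 1.49% in wild-type mice, and *Lama5* took 7.44 ± 1.23% and 4.52 ± 0.166%, with no overlap for either chain. Shares of a sum move against each other, so these 3 differences are not separate results. Each gave p = 0.1 in a two-sided exact permutation test, the smallest that 3 mice against 3 allow. After adjustment over the 14 shares tested (5 laminin α chains and 9 integrin β subunits) the p-value was 0.28. With 3 mice against 3 no share could have passed, so this test cannot decide whether the shares differ.

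**Figure D2:**
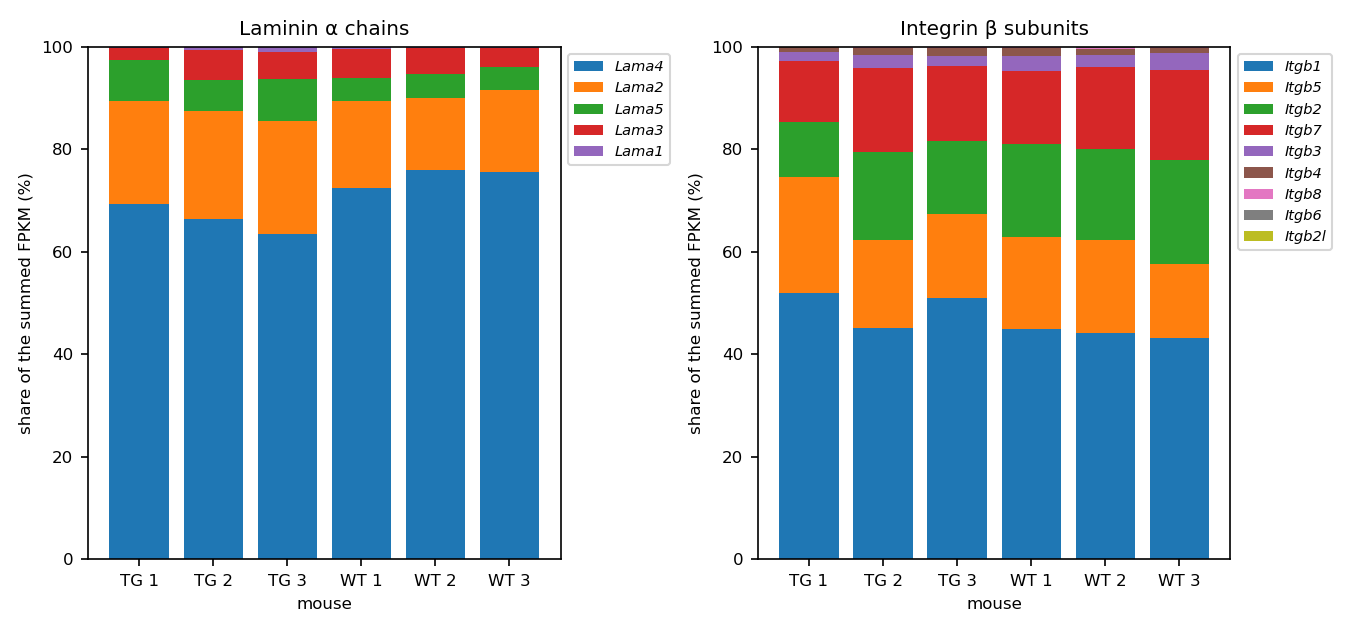
Share of each chain in the summed FPKM of the 5 laminin α chains (left) and of the 9 integrin β subunits (right), in percent, with 1 stacked bar per mouse (TG, transgenic; WT, wild type). *Lama4* is the largest α chain block in all 6 mice and is smaller in the 3 transgenic bars, and *Itgb1* is the largest β block.

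None of the *Lamb1*, *Lamb2*, *Lamb3*, *Lamc1* and *Lamc3* chains passed the test. *Lamb1*, the β1 chain of most laminins, was the most abundant laminin transcript. It had 44.8, 60.2 and 61.9 FPKM in TG, against 69.9, 53.4 and 73.7 FPKM in WT iWAT. The groups overlapped, and the log2 fold change was −0.24 (standard error 0.17, adjusted p = 0.343). *Lamc1*, the γ1 chain that most laminins share, had 42.6, 46.6 and 46.9 FPKM against 52.8, 50.5 and 58 FPKM. All 3 transgenic values of *Lamc1* were below all 3 wild-type values, but the difference did not pass the adjustment (log2 fold change −0.24, standard error 0.09, adjusted p = 0.0939). *Lamb2*, the β2 chain of muscle and vessel laminins, was at 20.7 to 24.2 FPKM in all 6 mice (log2 fold change 0.01, adjusted p = 0.968). *Lamc3*, the γ3 chain, had 6.4 ± 1.38 and 5.42 ± 0.995 FPKM (log2 fold change 0.20, adjusted p = 0.42). Over the 11 chains together, 1 of the 10 tested was called, beside 18.6% of all tested loci, with a median log2 fold change of −0.14.

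The α3 and β3 chains belong to the laminin of epithelial basement membranes, which the α6β4 integrin anchors. Their transcripts *Lama3* and *Lamb3* and that of the β4 subunit, *Itgb4*, summed to 3.69, 6.79 and 8.09 FPKM in the transgenic and 8.93, 6.83 and 6.05 FPKM in the wild-type mice. Transgenic replicate 1 was lowest and wild-type replicate 1 highest, and the genotypes overlapped. The 9 epithelial markers summed to 133, 189 and 268 FPKM and to 308, 256 and 225 FPKM, which places the same 2 mice at the ends. Between them the order differed: wild-type replicate 3 was below transgenic replicate 2 in the transcript sum and above it in the marker sum. All 9 epithelial markers passed the filter and none was called, beside 18.6% called among all tested loci. The log2 fold change of all 9 was below 0, with a median of −0.35, beside 51.6% of all tested loci below 0. The log2 fold changes of the 3 transcripts ran from −0.39 for *Lama3* to −0.04 for *Lamb3*, with adjusted p between 0.244 and 0.918. The part of the epithelial content in these values was not tested.

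Further basement membrane genes were counted on a list of 13, of which 11 were tested. Of these, 3 were lower, 8 were not called and none was higher, beside 7.03% lower and 11.6% higher among all tested loci. Nidogens link laminin to collagen IV. The nidogen gene *Nid2* had 3.88, 5.64 and 5.98 FPKM in TG, against 17.8, 29.8 and 16 FPKM in WT iWAT, without overlap (log2 fold change −1.81, standard error 0.24, limma adjusted p = 0.00395). *Col15a1*, a collagen at the outer face of basement membranes, had 52.9 ± 4.1 and 102 ± 22.4 FPKM (log2 fold change −0.92, adjusted p = 0.0122). *Nid1*, the other and more abundant nidogen, had 84.8 ± 3.08 and 113 ± 6.75 FPKM (log2 fold change −0.41, adjusted p = 0.0172). The call of *Nid1* was lost without transgenic replicate 3 or wild-type replicate 2 (adjusted p up to 0.0674). The median log2 fold change of the 11 was −0.17.

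Receptors of laminin showed no call. The laminin-binding integrins pair the α3, α6 or α7 subunit with β1, or α6 with β4. *Itga7*, the α7 subunit best known from muscle, was the most abundant of them with 37.7, 23.7 and 24.4 FPKM in TG, against 34.1, 29.7 and 27.6 FPKM in WT iWAT. The groups overlapped, with transgenic replicate 1 highest of all and the other transgenic mice lowest (log2 fold change −0.11, standard error 0.18, adjusted p = 0.682). The locus is shared with *Mettl7b* on the other strand, which was lower in transgenic iWAT (1.08 ± 0.175 against 2.63 ± 0.266 FPKM, log2 fold change −0.80, adjusted p = 0.00548). *Itga6*, the α6 subunit, had log2 fold change −0.19 (adjusted p = 0.301). *Itga3*, a receptor subunit for the α3 and α5 laminins, had 5.4, 5.03 and 5.83 FPKM against 4.73, 3.67 and 3 FPKM. It separated by genotype in the higher direction but was not called (log2 fold change 0.43, adjusted p = 0.0735). Leaving out wild-type replicate 1 gave 0.032, and the range over the 14 other settings was 0.032 to 0.182. Of the 6 receptors of laminin that are no integrins, none was called, beside 18.6% called among all tested loci. By genotype, 1 of the 6 separated on the higher side and 4 on the lower side, beside 22.8% and 20.1% of all tested loci. The higher one was *Dag1*, the dystroglycan core protein (log2 fold change 0.45, adjusted p = 0.052). Among the lower ones, *Sdc4* had log2 fold change −0.36 (adjusted p = 0.0546).

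The collagen-binding integrins held the only member that was called higher. *Itga1* encodes the α1 subunit, which with β1 binds collagen IV and other collagens and is found on mesenchymal and endothelial cells. The table reports it on 1 row with *Pelo*, a gene of ribosome rescue that lies within the *Itga1* gene on the same strand, and the values of the pair cannot be parted. The annotation also places *Gm49395* there on the same strand, with exons that overlap those of *Itga1*. The row had 25.1, 23.9 and 24.3 FPKM in TG mice, against 15.9, 16.3 and 15.4 FPKM in WT mice. All transgenic values were higher than all wild-type values, and the gap between the genotypes was several times the spread within either. The means were 24.4 ± 0.583 and 15.9 ± 0.466 FPKM (SD, n = 3 each), and the log2 fold change of 0.59 ± 0.07 (SE) was called by limma (adjusted p = 0.00226). The locus runs on chromosome 13 of mm10 from 114953108 to 115102124. It was called in all 14 other settings, with log2 fold changes from 0.57 to 0.62 and adjusted p from 0.00127 to 0.0137. The row took 21.7 ± 0.477% of the summed FPKM of the α subunit rows in TG, against 13.8 ± 0.835% in wild-type mice. This share includes *Pelo* and was not tested. Of the other α subunits of this class, *Itga11* was not called (log2 fold change −0.18, adjusted p = 0.557), and *Itga2* and *Itga10* stayed under 1 FPKM in each mouse. *Itga10* was not tested but separated by genotype at this low level, with 0.42, 0.384 and 0.434 FPKM in TG, against 0.318, 0.283 and 0.377 FPKM in WT mice.

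Cells that could carry *Itga1* and *Lama4* were followed by markers. For comparison, 11.6% of all tested loci were called higher and 7.03% lower. The 9 endothelial markers summed to 200, 216 and 217 FPKM in the transgenic and 205, 199 and 207 FPKM in the wild-type mice, which overlapped. Of these, *Kdr* and *Emcn* were higher (log2 fold changes 0.35 and 0.50), *Cldn5* was lower (−0.76) and 6 were not called. Of 8 mural cell markers, *Kcnj8* was higher (0.51) and *Mcam* lower (−0.76), and the list summed to 224 to 321 FPKM in TG, against 291 to 372 FPKM in WT mice. Of 8 fibroblast and progenitor markers, *Dpt* was lower (−1.37), and the sums were 1522 to 2134 and 2209 to 2683 FPKM. The markers of a single cell type thus moved in both directions within the endothelial and the mural lists. Of 8 adipocyte markers, *Adipoq*, *Lpl* and *Retn* were lower and none was higher, and 7 of 8 thermogenic markers were higher. The part of any of these cells in the 2 results was not tested.

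The *Itga1,Pelo* row covers transcripts from 2 start sites, and both promoters are shown for that reason, from 250 bases before to 50 bases after the start in RefSeq for GRCm38.p6. They lie at chr13:115101915-115102214 and chr13:115090109-115090408, both on the minus strand. *Hlx* is a homeodomain factor, and many homeodomain proteins bind sites with a TAAT core, so TAAT and its reverse complement ATTA were searched, which covers both strands. Capitals mark the matches, and neither promoter holds any. Several of the Hlx-binding motif sequences that the study lists at other promoters hold neither TAAT nor ATTA. The search therefore does not cover all sites of Hlx. The letters were found in 58% of the 32851 mouse promoters of the same length.
Itga1: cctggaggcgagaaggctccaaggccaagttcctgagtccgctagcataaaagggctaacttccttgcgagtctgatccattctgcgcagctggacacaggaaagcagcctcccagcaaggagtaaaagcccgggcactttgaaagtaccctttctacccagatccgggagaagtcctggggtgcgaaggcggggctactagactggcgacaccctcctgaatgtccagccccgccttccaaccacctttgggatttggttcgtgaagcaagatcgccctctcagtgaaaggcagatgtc
Pelo: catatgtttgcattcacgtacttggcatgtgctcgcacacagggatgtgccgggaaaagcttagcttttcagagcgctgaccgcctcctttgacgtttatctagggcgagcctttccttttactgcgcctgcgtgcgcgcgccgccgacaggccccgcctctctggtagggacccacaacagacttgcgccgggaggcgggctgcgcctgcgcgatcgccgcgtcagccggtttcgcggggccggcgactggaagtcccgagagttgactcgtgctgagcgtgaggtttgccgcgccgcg

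The promoters of *Itga4* and *Itgbl1*, which were lower, are shown as those of the lower members whose locus begins at the listed start, from the same source. That of *Itga4* lies at chr2:79255176-79255475 and that of *Itgbl1* at chr14:123659890-123660189, both on the plus strand. *Itga4* has no match and *Itgbl1* has 3, of which a TAAT and an ATTA share letters within the run TAATTA. The promoter of *Itgb1bp1* had no match either, and none is shown for *Lama4*. A match describes the letters and does not mark a bound site, and the lack of a match does not mean that no Hlx site is there.
Itga4: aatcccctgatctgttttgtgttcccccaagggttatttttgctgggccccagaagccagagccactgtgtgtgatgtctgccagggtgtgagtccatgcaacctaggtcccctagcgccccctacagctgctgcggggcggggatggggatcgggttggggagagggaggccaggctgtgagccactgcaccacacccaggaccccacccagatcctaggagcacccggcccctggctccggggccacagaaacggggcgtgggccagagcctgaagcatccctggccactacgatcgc
Itgbl1: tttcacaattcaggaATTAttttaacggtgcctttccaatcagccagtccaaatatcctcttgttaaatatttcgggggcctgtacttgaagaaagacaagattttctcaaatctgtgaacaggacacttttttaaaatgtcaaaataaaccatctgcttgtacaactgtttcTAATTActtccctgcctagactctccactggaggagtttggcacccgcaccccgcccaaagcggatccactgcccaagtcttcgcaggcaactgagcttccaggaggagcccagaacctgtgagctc

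Integrins that bind the RGD motif did not differ by the test. *Itgb5*, the β5 subunit that pairs with αv to bind vitronectin, was the most abundant with 36.9, 29.6 and 28.3 FPKM in TG, against 31.8, 34.6 and 29.4 FPKM in WT iWAT. These values overlapped throughout (log2 fold change −0.02, standard error 0.12, adjusted p = 0.911). The fibronectin receptor subunit *Itga5* and the αv subunit *Itgav* had log2 fold changes of 0.01 and 0.12 (adjusted p = 0.958 and 0.518). *Itgb3*, the β3 subunit of platelets, endothelium and macrophages, had 2.97, 4.44 and 3.42 FPKM against 5.31, 4.44 and 6.68 FPKM. Its values separated only past the digits shown, and it was not called (log2 fold change −0.49, adjusted p = 0.0814). *Itga2b*, the platelet αIIb subunit, had log2 fold change −0.19 (adjusted p = 0.671). Of 5 platelet markers, *Pf4* alone passed the filter, and it was not called (log2 fold change −0.35, adjusted p = 0.0652). The other platelet markers stayed under 1 FPKM in each mouse and were not tested, and their means were higher in TG mice. Of these, *Gp1ba* (0.67 ± 0.0951 against 0.371 ± 0.0969 FPKM) and *Treml1* (0.23 ± 0.0817 against 0.0472 ± 0.0276 FPKM) separated by genotype on the higher side. *Ppbp* and *Gp9* overlapped. *Itga8* reached 1.06 FPKM in WT replicate 1 and was below 1 FPKM elsewhere, and *Itgb8* and *Itgb6* were at 0.0181 to 0.354 FPKM. These 3 were not tested.

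Of 15 other integrin ligands, 14 were tested, 3 were lower and none was higher, with the same 7.03% and 11.6% over all tested loci. *Madcam1*, the endothelial ligand of the α4β7 integrin, had 1.19, 1.55 and 1.22 FPKM in TG, against 3.94, 3.32 and 5.05 FPKM in WT mice, without overlap (log2 fold change −1.13, standard error 0.15, limma adjusted p = 0.00369). *Vtn*, vitronectin, had 13 ± 1.27 and 21.8 ± 1.28 FPKM (log2 fold change −0.71, adjusted p = 0.00371). *Mfge8*, a secreted RGD protein that bridges to αv integrins, had 191 ± 5.97 and 241 ± 8.97 FPKM (log2 fold change −0.34, adjusted p = 0.0359). The call of *Mfge8* was lost when any of the 6 mice was left out (adjusted p 0.0593 to 0.117), and quantile normalization gave a log2 fold change of −0.62 (adjusted p = 0.00495). Vitronectin and *Mfge8* were thus lower while the αv and β5 subunits were not called, and the median log2 fold change of the 14 ligands was −0.23.

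The α4 and α9 subunits bind VCAM-1 and related ligands. *Itga4*, the α4 subunit of lymphocytes and monocytes, had 5.02, 5.63 and 5.46 FPKM in TG, against 6.4, 7.38 and 8.43 FPKM in WT iWAT. Each transgenic mouse was below each wild-type mouse. The means were 5.37 ± 0.316 and 7.4 ± 1.01 FPKM, and the log2 fold change of −0.39 ± 0.11 (SE) was called by limma (adjusted p = 0.0457). The call stood close to the threshold. It was lost without the filter and without any mouse other than wild-type replicate 1, with adjusted p up to 0.124. The locus, on chromosome 2 of mm10 from 79255392 to 79428988, is shared with *Cerkl*, whose exons overlap those of *Itga4* on the other strand. *Cerkl* was higher in transgenic iWAT (1.13 ± 0.238 against 0.173 ± 0.0523 FPKM, log2 fold change 0.86, adjusted p = 0.00895). The library kit named in the labels does not mark strand, so reads in the overlap cannot be told apart by gene. *Itga9* had 1.82 ± 0.477 and 2.62 ± 0.829 FPKM and was not called (log2 fold change −0.35, adjusted p = 0.268).

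Leukocyte integrins lay on the lower side without passing the test. *Itgb2*, the β2 subunit that all white blood cells carry, had 17.5, 29.8 and 25 FPKM in TG, against 32.5, 33.7 and 40.9 FPKM in WT iWAT. The groups did not overlap, with transgenic replicate 1 lowest and wild-type replicate 3 highest. The log2 fold change was −0.57 (standard error 0.19, adjusted p = 0.0777), and with each mouse left out it ran from −0.74 without transgenic replicate 2, where it was called (adjusted p = 0.0379), to −0.37 without transgenic replicate 1 (adjusted p = 0.128). *Itgal*, the αL partner of β2 on lymphocytes, had log2 fold change −0.49 (adjusted p = 0.148), or −0.27 without transgenic replicate 1 (adjusted p = 0.301). *Itgb7* and *Itgae*, the β7 and αE subunits of gut-homing and tissue-resident lymphocytes, had −0.32 and −0.27 (adjusted p = 0.229 and 0.15). *Itgad* and *Itgb2l* were at or near 0 in all mice and were not tested.

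Leukocyte content was followed by markers. The 4 tested leukocyte integrins summed to 47.3, 74 and 64.6 FPKM in the transgenic and 72.8, 84.1 and 97.5 FPKM in the wild-type mice. The 7 macrophage markers summed to 415, 620 and 429 FPKM and to 763, 614 and 893 FPKM, and the 8 lymphocyte markers to 187, 286 and 244 FPKM and to 276, 342 and 395 FPKM. Transgenic replicate 1 was lowest and wild-type replicate 3 highest in all 3 sums, while the order of the mice between them differed: wild-type replicate 2 was above transgenic replicate 2 in the integrin and lymphocyte sums and below it in the macrophage sum. Of the macrophage markers, 3 were called lower (*Cd68*, *Csf1r* and *Cd163*) and all 7 had a log2 fold change below 0. Of the lymphocyte markers, the B cell gene *Ms4a1* was called lower, and all 8 had a log2 fold change below 0. Among all tested loci, 7.03% were called lower and 51.6% had a log2 fold change below 0. The part of the leukocyte content in the values of the leukocyte integrins and of *Itga4* was not tested.

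**Figure D3:**
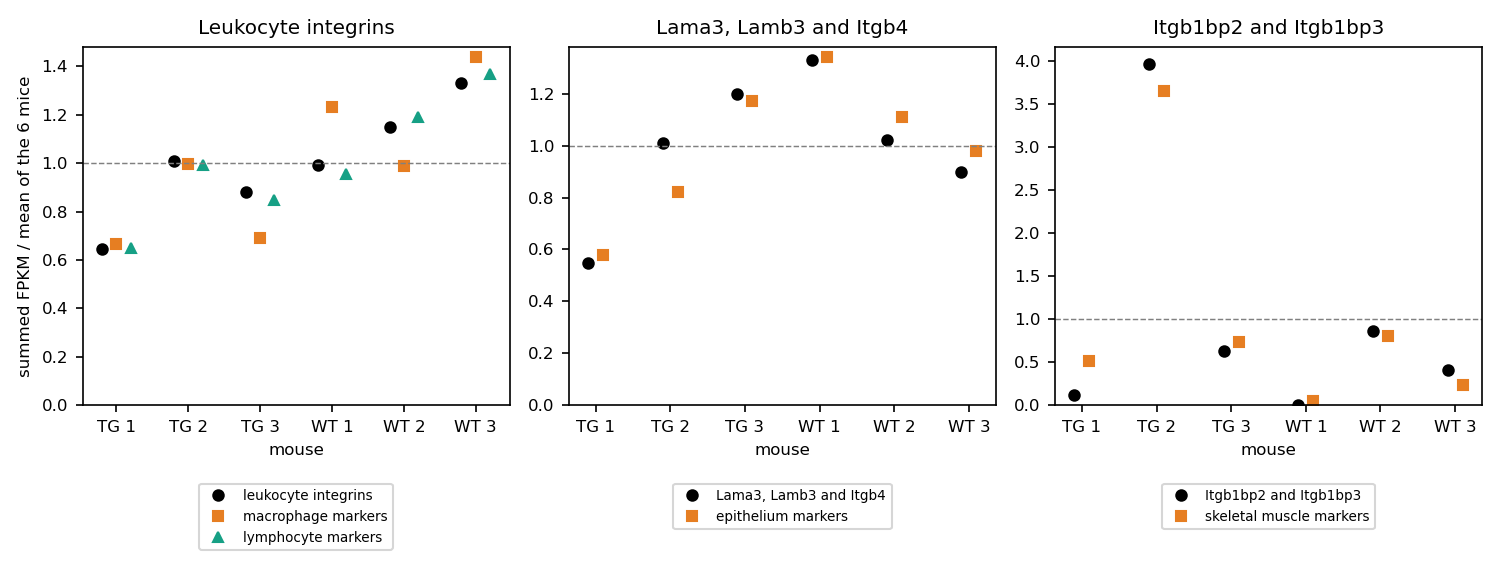
Summed FPKM in each mouse divided by the mean of the 6 mice for 3 sets of members (circles) beside markers of the cell type named in each legend (squares and triangles), with the dashed line at 1. The leukocyte integrins are lowest in TG 1 and highest in WT 3, as are both leukocyte marker sums, TG 1 is lowest and WT 1 highest for both sums in the middle, and TG 2 is highest for both on the right.

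*Itgb1* encodes the β1 subunit that the collagen, laminin and several other receptors share. It was the most abundant member and was not called, with 84.6, 78.4 and 88.1 FPKM in TG, against 79.9, 83.8 and 87.3 FPKM in WT iWAT. The groups overlapped fully, and the means were 83.7 ± 4.92 and 83.7 ± 3.69 FPKM (log2 fold change −0.00, standard error 0.08, adjusted p = 0.997). Among the 9 β subunits its share was 49.3 ± 3.65% in transgenic and 44.1 ± 0.888% in wild-type mice, higher in each transgenic mouse. The share of *Itgb2* was 14.1 ± 3.22% and 18.8 ± 1.32%, lower in each transgenic mouse. Both shares gave p = 0.1 in the exact permutation test and 0.28 after adjustment over the 14 shares. Since 0.1 is the smallest p that 6 mice allow in this test, it cannot decide whether these shares differ.

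The remaining loci carry an integrin in their name only. *Itgb1bp1* encodes ICAP-1, which binds the tail of β1 integrin and keeps it inactive. It had 18.6, 19.4 and 16.5 FPKM in TG, against 28.6, 25.3 and 22.1 FPKM in WT iWAT. The genotypes did not overlap, and the means were 18.2 ± 1.49 and 25.4 ± 3.25 FPKM (log2 fold change −0.45, standard error 0.11, limma adjusted p = 0.0335). The call was lost without the filter and without transgenic replicate 1 or 3 or wild-type replicate 1 or 2, with adjusted p up to 0.106. Its locus on chromosome 12 of mm10, from 21111756 to 21315056, also holds *Asap2* and *Cpsf3* on the other strand, and exons of *Asap2* overlap it. *Asap2* itself was not called (log2 fold change 0.03, adjusted p = 0.907). Since the library kit does not mark strand, reads in this overlap cannot be told apart by gene either.

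*Itgbl1* encodes a secreted protein with repeats like those of β integrins. It had 2.52, 2.64 and 2.63 FPKM in TG, against 3.78, 3.74 and 3.44 FPKM in WT mice, again without overlap. The means were 2.6 ± 0.0687 and 3.65 ± 0.181 FPKM, and the log2 fold change of −0.37 ± 0.09 (SE) was called by limma (adjusted p = 0.0277). The locus lies on chromosome 14 of mm10 from 123660129 to 123976123. Its call was lost when any of the 6 mice was left out, with adjusted p between 0.0511 and 0.0925. *Itgb3bp*, a centromere and nuclear receptor protein, was not called (log2 fold change 0.06, adjusted p = 0.748). *Itgb1bp2*, the muscle protein melusin, had 1.3 FPKM in transgenic replicate 2 and at most 0.292 FPKM in the other mice. *Itgb1bp3*, a nicotinamide riboside kinase of muscle, had 0.26 FPKM in the same mouse and at most 0.0485 FPKM elsewhere. Both were too low to be tested. Skeletal muscle markers summed to 703 FPKM in that mouse and to between 9.21 and 154 FPKM in the others, so transgenic replicate 2 stood apart for muscle RNA in both measures. The muscle marker sums of transgenic replicates 1 and 3 (99.5 and 141 FPKM) lay within the wild-type range of 9.21 to 154 FPKM. None of the 8 muscle markers was called, beside 18.6% called among all tested loci. All 8 had a log2 fold change above 0, as had 5663 of the 11692 tested loci.

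Adaptors that link integrins to actin were counted on a list of 19, of which 17 were tested. Of these, 2 were higher, 1 was lower and 14 were not called, which is close to the 11.6% higher and 7.03% lower among all tested loci and so no result about the adaptors. *Lims2*, which encodes PINCH-2 of the complex with integrin-linked kinase, had 72.7, 56.6 and 58 FPKM in TG, against 40.8, 32.6 and 36.8 FPKM in WT iWAT, without overlap (log2 fold change 0.75, standard error 0.13, limma adjusted p = 0.00967). *Tns1*, the focal adhesion protein tensin-1, had 189 ± 34.5 and 131 ± 6.59 FPKM (log2 fold change 0.51, adjusted p = 0.0487). *Fermt3*, the kindlin of blood cells that activates β2 and β3 integrins, had 15.8 ± 3.12 and 24 ± 2.69 FPKM (log2 fold change −0.58, adjusted p = 0.0387). The calls of *Tns1* and *Fermt3* were lost when any mouse other than transgenic replicate 2 was left out (adjusted p up to 0.14 and 0.121). *Tns1* was also not called without the filter (adjusted p = 0.128), without the trend (0.0503) and with quantile normalization, which lowered its log2 fold change to 0.27 (adjusted p = 0.151), and *Fermt3* was not called without the filter (0.125). The median log2 fold change of the 17 was −0.10. *Fermt3* was lower, as were the called leukocyte markers given above, and the part of the leukocyte content in its value was not tested.

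**Figure D4:**
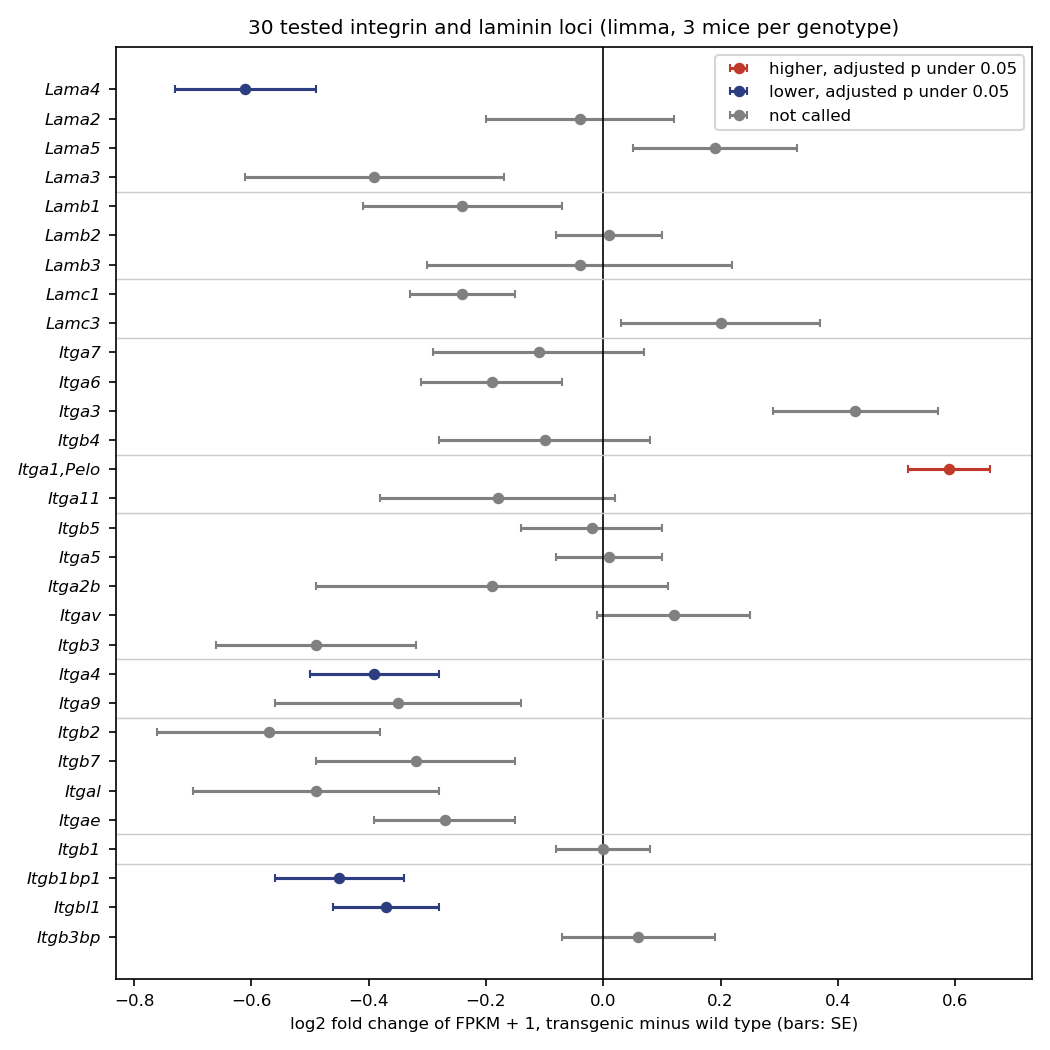
Log2 fold change of FPKM + 1 (transgenic minus wild type, bars are standard errors from limma, 3 mice per genotype) of 30 tested loci, grouped by role and coloured by call. The estimate of *Itga1,Pelo* is 0.59 and that of *Lama4* −0.61, and 22 of the 30 points lie below 0.

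The 5 called loci differed in how firmly they were called. *Itga1,Pelo* kept its call in all 14 other settings and *Lama4* in 12. The other 3 calls depended on single mice, and all kept their direction in each setting. Without transgenic replicate 2, the library richest in muscle RNA, *Itga1,Pelo*, *Lama4*, *Itgb1bp1*, *Itgb2* and *Itgb3* were called, *Itgb3* just inside the threshold. With an adjusted p under 0.01, *Itga1,Pelo* alone was called, and no called member differed by at least 2-fold in mean FPKM.

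**Figure D5:**
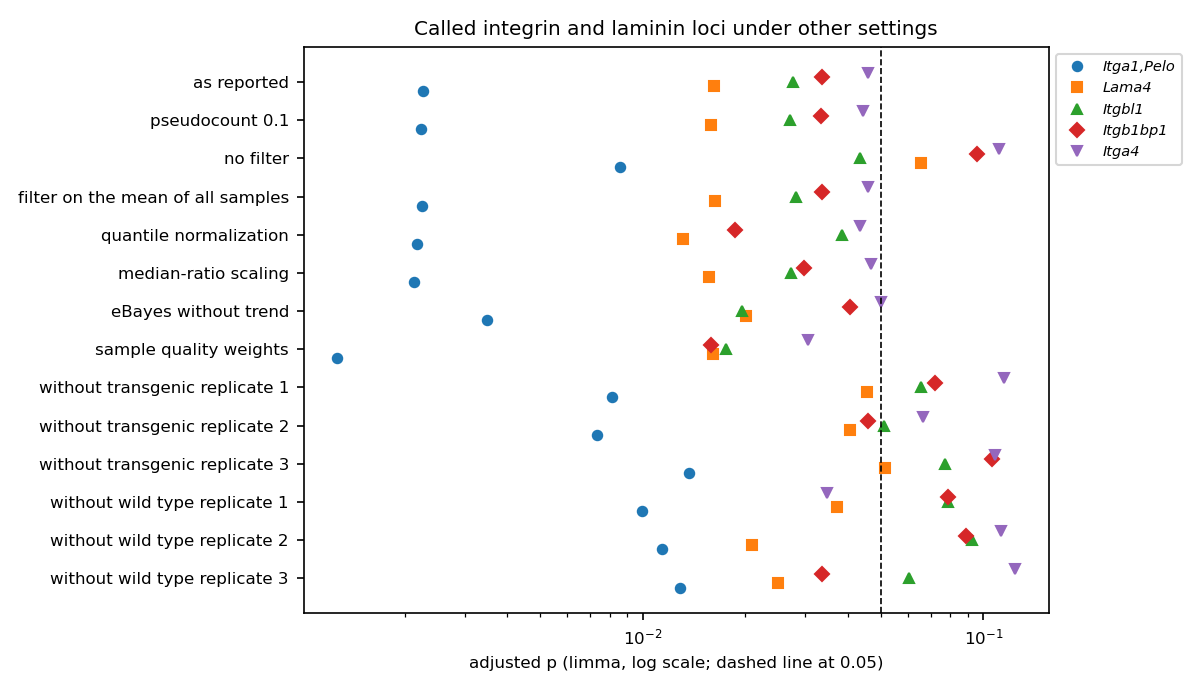
Adjusted p (limma, log axis) of the 5 called loci as reported and under 13 other settings, with the dashed line at 0.05. *Itga1,Pelo* lies between 0.00127 and 0.0137 throughout, whereas *Itga4*, *Itgbl1* and *Itgb1bp1* cross the line in several of the fits that leave out a mouse.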

How the data were processed

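RNA was extracted with Trizol and sequenced from TruSeq RNA V2 libraries of 6 mice. The submitters' processing notes name CASAVA 1.8.2, TopHat2 2.0.9, Bowtie2 2.1.0 and Cufflinks 2.2.1 with the mm10 build. The gene annotation is not given in the sources used here. The authors deposited an FPKM value per locus and mouse, with no counts, so no count test was run. A locus holds all genes whose transcripts overlap, and its coordinates are given with starts counted from 1.

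Loci were kept where the mean of either genotype exceeded 1 FPKM, the filter of the study, which left 11692, and were taken to log2 after a pseudocount of 1. The genotypes were compared by the moderated two-sided test of limma 3.58.1 under R 4.3.3, using lmFit, then eBayes with a mean-variance trend, without covariates, and p-values were adjusted after Benjamini-Hochberg over all tested loci. Shares of a family were compared by exact permutation over the 20 arrangements of 6 mice. Low FPKM is less precise in the shallower libraries. The fit was tested on simulated data with changes of at least 2-fold, which is more than any called member showed. That test therefore does not cover changes of their size. Marker rows shared with another gene were left out of the marker sums.

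The members, lists and tests were chosen with earlier results of these data known. Values per mouse are given by rule for each called member and for the most abundant member of each role, other members being named after their values were seen, and of each pathway list up to 3 called genes with the largest change. *Dag1* and *Sdc4*, which were not called, were also named after their values were seen. *Itgb1bp3* was added to the role list after the table was read. Of the members, 1 is not reported here by name and enters the counts only. Alternatives were a pseudocount of 0.1, no filter, a filter on the mean of all mice, sample quality weights, no mean-variance trend, quantile normalization, scaling by median ratios, stricter calls, leaving out each mouse, and a block on replicate number.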

Additional observations from a re-analysis of the deposited data

How the results depend on the processing

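Over the 31 tested members and 14 alternatives, 379 of the comparisons kept direction and call, 21 lost a call, 5 gained a call and 29 changed sign, all of the last at loci that were not called. Of all tested loci, 1352 were higher and 822 lower. These counts were 748 and 381 without the filter, 569 and 199 at an adjusted p under 0.01, 413 and 204 when mean FPKM also had to differ 2-fold, and 780 to 1295 and 329 to 906 with each mouse left out. Sample quality weights gave 1611 higher and 1185 lower. Of the members, 1 was higher and 4 lower. Quality weights gave 2 higher, no filter gave 1 lower, an adjusted p under 0.01 gave 0 lower, and the 2-fold call gave 0 higher and 0 lower. With each mouse left out, 1 to 2 were higher and 0 to 4 lower. The count lower was 1 without transgenic replicate 1, 0 without transgenic replicate 3, 1 without wild-type replicate 2 and 2 without wild-type replicate 1 or 3. Of the other genes of the pathway, 2 were higher and 7 lower. No filter gave 0 higher, quantile normalization 1 higher, median-ratio scaling 3 higher, an adjusted p under 0.01 1 higher and 3 lower, the 2-fold call 0 higher and 2 lower, and leaving out each mouse 1 to 2 higher and 4 to 9 lower. Fits with a mouse left out rest on fewer mice, and the fit without the filter adjusts over more loci. Some counts nevertheless rose, such as those of 906 lower loci and 9 lower pathway genes without transgenic replicate 2. The cause of these changes was not tested.

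Replicate numbers are shared by the genotypes in the labels only. With the replicate block, 1 member was higher and 3 lower, 1 gene of the pathway was higher and 6 lower, and 1230 loci were higher and 656 lower. Without the filter *Col15a1* (adjusted p = 0.0656), *Lims2* (0.0503), *Fermt3* (0.125) and *Tns1* (0.128) were not called. *Itga4*, *Itgbl1*, *Mfge8* and *Tns1* lost their calls with the block and *Itgal* gained one (adjusted p = 0.0442). Deviations of same-numbered mice from their group means correlated at 0.0129, 0.0344 and 0.0701 across loci, and transgenic replicate 1 correlated best with wild-type replicate 2 (0.135), so the numbers were not taken to pair the mice.

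Signs changed for *Lamb3* (0.00 with quantile normalization, 0.16 with weights, −0.27 to 0.16 with each mouse left out), *Lama2* (0.11 with weights, −0.20 to 0.09), *Itgb4* (0.01 with weights, −0.22 to 0.08), *Itga2b* (0.06 with weights, −0.51 to 0.01), *Itgb1* (0.02 with weights, −0.04 to 0.05) and *Lamb2* (−0.02 with quantile normalization, −0.03 with weights, −0.05 to 0.04). With a mouse left out they also changed for *Itga7* (−0.32 to 0.00), *Itga5* (−0.06 to 0.07), *Itgb5* (−0.14 to 0.05) and *Itgb3bp* (−0.02 to 0.15). Among shares, the difference was 0.05 percentage points for *Lama3* with quantile normalization, and with a mouse left out it ran from −0.954 to 0.786 for *Lama3*, from −0.128 to 0.208 for *Itgb4* and from −0.181 to 2.98 for *Itgb5*.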

Other observations

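*Itgam* and *Itgax*, the αM and αX subunits of macrophages, neutrophils and dendritic cells that pair with β2, were left out by the rule on names. *Itgam* had 5.01, 5.91 and 4.76 FPKM in transgenic and 7.48, 7.03 and 12 FPKM in wild-type iWAT, and *Itgax* had 1.78, 2.77 and 1.72 FPKM against 3.3, 2.9 and 3.1 FPKM. The values of both separated by genotype on the lower side, like those of *Itgb2*, and neither was called by limma (log2 fold changes −0.63 and −0.43, adjusted p = 0.0593 and 0.0843).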
